A study of Mus musculus with 7 samples.

Results

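The genes described here are 8 synaptic adhesion genes of the mouse: the neurexins Nrxn2 and Nrxn3, the neuroligins Nlgn1 and Nlgn2, and the leucine-rich repeat genes Lrrtm1, Lrrtm2, Lrrtm3 and Lrrtm4. They were chosen by name from 21883 protein-coding genes, and the Fos peaks that lay within 10 kb of each gene's span were collected from 6 peak lists. The lists come from ChIP-seq, in which DNA bound by a protein is pulled down and sequenced, here with an anti-Fos antibody. Fos is an immediate early gene product that pairs with Jun proteins to form AP-1. The tissue was the whole hippocampus of wild-type C57BL/6J mice aged 2 months. The kainic acid group (3 libraries) had received 2 injections of 10 mg/kg of this glutamate receptor agonist into the peritoneum, 30 min apart, and animals with level 4 seizures were taken 1 h after the first. The saline group (3 libraries) had received PBS, and 1 input library was made from chromatin of saline mice without antibody. How many animals went into a library is not stated, so every test below measures the spread between libraries, which may be technical. Peaks carry no expression values, so the tissue label could not be checked against marker genes, and a peak does not show which cell type bound Fos.

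Neurexins sit mainly on the presynaptic membrane. Neuroligins and the Lrrtm proteins face them from the postsynaptic side, where they bind neurexins across the cleft. Nlgn1 is known mainly from excitatory synapses and Nlgn2 from inhibitory ones. The Lrrtm proteins act at excitatory synapses, where they help to hold AMPA-type glutamate receptors. Lrrtm4 also binds heparan sulfate proteoglycans and is known from dentate granule cells. Many of these genes are very long, so the number of peaks near each is given together with the density per 100 kb of the window (the span plus 10 kb on either side).

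The peak lists were of unequal length. Kainic acid replicates 1, 2 and 3 held 15009, 63197 and 29650 peaks, and saline replicates 1, 2 and 3 held 7, 3277 and 2. No read totals come with the lists, so the depth is unknown, and a gene with no peak in a saline list is a gene without a call there, not an unbound gene. Near the 8 genes lay 30, 119 and 61 peaks of kainic acid replicates 1, 2 and 3, and 0, 6 and 0 peaks of the saline lists. These are 0.200%, 0.188% and 0.206% of the kainic acid lists and 0.183% of the saline replicate 2 list (95% exact Clopper-Pearson interval 0.0672 to 0.398, counting error only). The windows of the 8 genes thus took a like share of the peaks in each of the 4 long lists, and the different numbers went with the lengths of the lists. The part of list length in any difference between the groups was not tested.

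Peaks of all lists that overlapped by at least 1 bp were merged, and a merged region that 2 or more of the 3 kainic acid lists share is called a kainic acid region. There were 55 kainic acid regions near the 8 genes, among 26862 in the whole series. All 8 genes had at least 1. Of all protein-coding genes, 40.0% had one, but the share rose with gene span. It was 26.3% under 20 kb (the class of Nlgn2 and Lrrtm2), 48.1% from 20 to 100 kb (Lrrtm1), 80.3% from 100 to 500 kb (Nrxn2 and Lrrtm3) and 94.7% over 500 kb (Nrxn3, Nlgn1 and Lrrtm4). For the 5 longer genes a region nearby is therefore what most genes of that span have. Nlgn2 had only a single region, and it lay outside the gene. Dropping kainic acid replicate 2 brought the total of 55 to 23, dropping replicate 3 to 26 and dropping replicate 1 to 48.

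The promoter sequences are described first. RefSeq (GRCm38.p6) listed 10 promoters for 6 of the 8 genes, namely Nrxn3, Nlgn1, Nlgn2, Lrrtm1, Lrrtm3 and Lrrtm4. No kainic acid region overlapped any of the 10. In 2 of them a peak of kainic acid replicate 2 alone did, and these are shown; they were chosen after the peaks had been seen, since the planned rule asked for a kainic acid region. Each run holds the 250 bases before the listed start site on the gene's strand, and capitals mark the bases under the peak, 66 in either case. The peak summits, 69837768 at Nlgn2 and 88953114 at Nrxn3, lie outside the runs, so the capitals cover only an edge of each peak.
Nlgn2 promoter, chr11:69837785-69838034, minus strand: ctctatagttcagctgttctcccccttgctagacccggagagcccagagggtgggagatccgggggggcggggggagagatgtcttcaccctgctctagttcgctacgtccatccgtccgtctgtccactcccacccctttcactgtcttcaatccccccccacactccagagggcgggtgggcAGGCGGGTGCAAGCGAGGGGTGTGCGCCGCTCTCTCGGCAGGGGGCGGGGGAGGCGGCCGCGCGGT
Nrxn3 internal promoter, chr12:88953140-88953389, plus strand: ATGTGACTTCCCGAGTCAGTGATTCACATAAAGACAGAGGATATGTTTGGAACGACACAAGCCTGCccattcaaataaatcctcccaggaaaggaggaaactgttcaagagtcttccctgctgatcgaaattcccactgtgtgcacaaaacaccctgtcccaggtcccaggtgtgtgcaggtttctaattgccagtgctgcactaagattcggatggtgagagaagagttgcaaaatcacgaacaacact

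The peak over the Nlgn2 start (69837590 to 69837850) had a deposited fold of 5.25, at percentile 32.4 of its list, where 0 is the highest fold. A saline replicate 2 peak (69838112 to 69838329) lay 328 bp upstream of the gene, near this peak without overlapping it. The peak at the Nrxn3 promoter (88952923 to 88953205) had a fold of 2.94, at percentile 94.7, among the weaker peaks of its list. This peak also overlapped the gene Gm40537. The pattern TGANTCA, a loose form of the AP-1 motif with any base at N, was searched on both strands. It was found in 1 of the 10 promoters, this internal promoter of Nrxn3, where it reads TGATTCA. The match begins 231 bases before the start site and lies under the peak, though not at its summit. It is in capitals in the following run, chr12:88953140-88953185.
Nrxn3 motif: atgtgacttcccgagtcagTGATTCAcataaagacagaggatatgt
The loose pattern TGANTCA occurs in 7.81% of the 32851 promoter windows of 300 bases in the table. The related motif TGACGTCA, the same on either strand, occurs in 1.79% of them and in none of the 10. A match is only a run of letters and does not show a binding site.

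Kainic acid was then compared with saline by the number of peaks near each gene. For 6 of the 8 genes every kainic acid library had more peaks than every saline library, and the exceptions were Nrxn2 and Nlgn2. Of all protein-coding genes 20.7% showed such a separation. By span class it was 9.98% under 20 kb, 24.0% from 20 to 100 kb, 59.7% from 100 to 500 kb and 88.5% over 500 kb. A two-sided exact permutation test over the 20 assignments of the libraries gave p = 0.1 for these 6 genes, the smallest value that 3 libraries against 3 allow. With Benjamini-Hochberg adjustment over all 21883 genes it was 0.484, so no gene passed 0.05 and none could have passed.

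**Figure D1:**
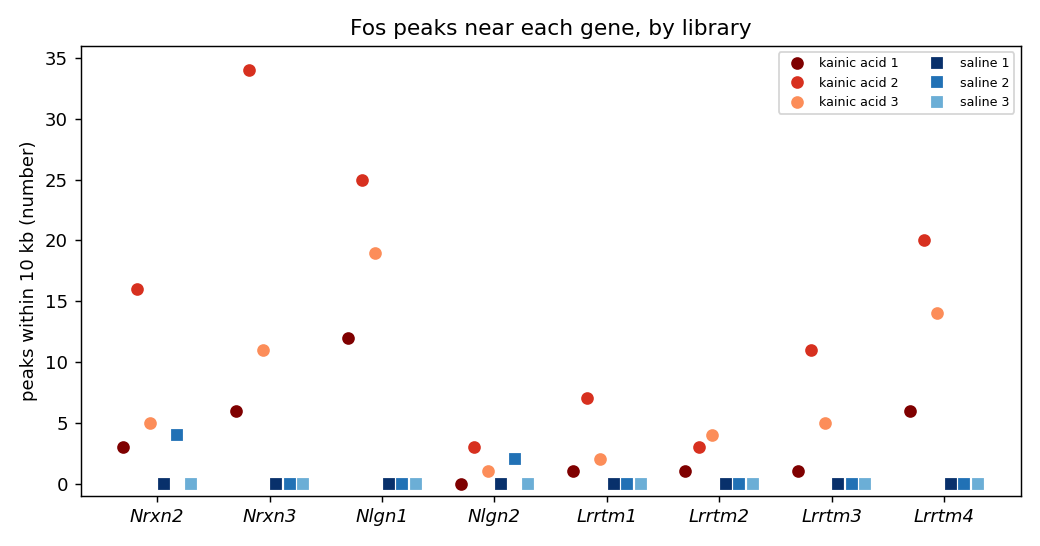
Number of Fos peaks within 10 kb of each gene (vertical axis) in each of the 6 libraries, 1 point per library; circles are kainic acid and squares are saline. Saline peaks appear only in replicate 2 at Nrxn2 (4 peaks) and Nlgn2 (2 peaks), and kainic acid replicate 2 has the most peaks at every gene but Lrrtm2.

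Among the neurexins, Nrxn3 spans 1612235 bp on chromosome 12 (88722701 to 90334935, plus strand). It had 6, 34 and 11 peaks in kainic acid replicates 1, 2 and 3 and none in the saline lists. The mean was 17.0 ± 14.9 (SD, n = 3) against 0, and the exact permutation p was 0.1. Replicate 2 had far more peaks than the other two, and the spread among kainic acid libraries was nearly as large as the difference. Here and at the genes that follow, the p of 0.1 became 0.484 after adjustment. The 13 kainic acid regions amount to 0.796 per 100 kb, and 44.7% of the genes over 500 kb had a lower density. Of the 13, 4 were in all 3 kainic acid lists, and another 21 regions were in replicate 2 alone. Without replicate 2 there were 4 regions, and without replicate 3 there were 6.

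Nrxn2 is much shorter, with 114462 bp on chromosome 19 (6418756 to 6533217). It had 3, 16 and 5 peaks in kainic acid replicates 1, 2 and 3, and 0, 4 and 0 in the saline lists. The means were 8 ± 7 and 1.33 ± 2.31 (SD, n = 3 each), with an exact permutation p of 0.2 (0.878 adjusted). The groups overlapped, since saline replicate 2 had more peaks than kainic acid replicate 1. Its 6 kainic acid regions amount to 4.46 per 100 kb, above 89.9% of the genes of 100 to 500 kb. Of the 6, 2 were in all 3 lists. Without kainic acid replicate 2 there were 2 regions, and without replicate 3 there were 3.

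Among the neuroligins, Nlgn1 spans 911059 bp on chromosome 3 (25421808 to 26332866, minus strand). It had 12, 25 and 19 peaks in kainic acid replicates 1, 2 and 3 and none with saline, a mean of 18.7 ± 6.51 (SD, n = 3) against 0 (exact permutation p = 0.1). Even the kainic acid library with the fewest peaks had 12. Nlgn1 had 15 kainic acid regions, the most among the 8 genes, or 1.61 per 100 kb, above 70.4% of the genes over 500 kb. It also had the best replicate support by number, with 9 of the 15 in all 3 lists. Without replicate 2 there were 9 regions, and without replicate 3 there were 11.

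Nlgn2 is 14662 bp long on chromosome 11 (69823123 to 69837784, minus strand) and lies among other genes. It had 0, 3 and 1 peaks with kainic acid and 0, 2 and 0 with saline, means of 1.33 ± 1.53 and 0.667 ± 1.15 (SD, n = 3 each; exact permutation p = 0.7, adjusted 1). The groups overlapped. Without kainic acid replicate 2 the difference in mean peak number turned to -0.167, and with the kainic acid lists trimmed to equal length it was -0.667. Its single kainic acid region (69845429 to 69845948) lay 7645 bp upstream and within 10 kb of Tmem256, Plscr3 and Tnk1 as well, so it cannot be assigned to Nlgn2. Without kainic acid replicate 2 or 3 it was not counted.

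The 4 Lrrtm genes had no saline peak. Lrrtm4, the longest with 791305 bp on chromosome 6 (80018858 to 80810162, plus strand), had 6, 20 and 14 peaks in kainic acid replicates 1, 2 and 3, a mean of 13.3 ± 7.02 (SD, n = 3; exact permutation p = 0.1). Its 11 kainic acid regions amount to 1.36 per 100 kb, above 66.8% of the genes over 500 kb, and 3 of them were in all 3 lists. The number of regions fell to 5 without replicate 2 and to 3 without replicate 3. Lrrtm3 (chromosome 10, 63928497 to 64090255, 161759 bp, minus strand) had 1, 11 and 5 peaks, a mean of 5.67 ± 5.03 (SD, n = 3; exact permutation p = 0.1). It had 5 regions, or 2.75 per 100 kb, above 77.0% of the genes of 100 to 500 kb. A single one of them was in all 3 lists, and without replicate 2 or replicate 3 only 1 was left.

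Lrrtm1 (chromosome 6, 77229210 to 77259915, 30706 bp, plus strand) had 1, 7 and 2 peaks in kainic acid replicates 1, 2 and 3, a mean of 3.33 ± 3.21 (SD, n = 3; exact permutation p = 0.1). Its 2 regions amount to 3.94 per 100 kb, above 87.4% of the genes of 20 to 100 kb. Lrrtm2 (chromosome 18, 35209003 to 35215024, 6022 bp) had 1, 3 and 4 peaks, a mean of 2.67 ± 1.53 (SD, n = 3; exact permutation p = 0.1). It was the only one of the 8 genes at which kainic acid replicate 3 had more peaks than replicate 2. Its 2 regions amount to 7.69 per 100 kb, above 95.7% of the genes under 20 kb, although a density from 2 regions in 26.0 kb is coarse. Each of these 2 genes had 1 region in all 3 lists, and 1 region was left at each without kainic acid replicate 2 or without replicate 3.

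In order of density, the 8 genes ran from Lrrtm2 (7.69 per 100 kb) through Nrxn2 (4.46), Lrrtm1 (3.94), Nlgn2 (2.89), Lrrtm3 (2.75), Nlgn1 (1.61) and Lrrtm4 (1.36) to Nrxn3 (0.796). The 3 genes over 500 kb were thus the lowest in density and the highest in number. Neighbours in this order cannot be separated, since the counts of Lrrtm1, Lrrtm2 and Nlgn2 are 1 or 2 regions. Single lists also gave other orders. With kainic acid replicate 1, Lrrtm3 had 0.550 peaks per 100 kb against 1.29 at Nlgn1, while with replicate 2 it had 6.05 against 2.69.

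**Figure D2:**
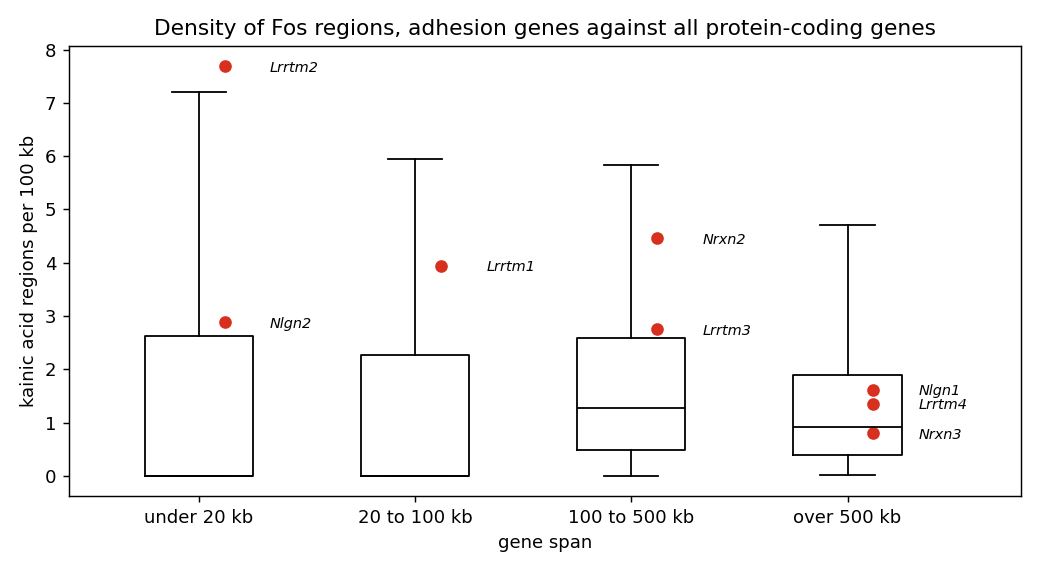
Kainic acid regions per 100 kb (vertical axis) for all protein-coding genes by span class (boxes: median and quartiles; whiskers: 5th and 95th percentiles) with the 8 genes as points. Nrxn3 lies just under the median of its class (0.913) and Lrrtm2 above the upper whisker; both shorter classes have a median of 0.

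The Lrrtm1, Lrrtm2 and Lrrtm3 genes each lie inside a gene for an alpha-catenin, which links cadherins to the actin cytoskeleton, so all of their regions also lie inside Ctnna2, Ctnna1 or Ctnna3. The peaks do not tell which gene they belong to. The host genes were examined after the positions had been seen. Ctnna3 (1574 kb) had 7 kainic acid regions within 10 kb, of which 5 lay in the Lrrtm3 window. The rest of Ctnna3 held 0.142 per 100 kb, against 2.75 in the Lrrtm3 window. Ctnna2 (1098 kb) had 12, with 2 in the Lrrtm1 window, and its remainder held 0.937 per 100 kb. Ctnna1 (136 kb) had 6, with 2 in the Lrrtm2 window, and its remainder held 3.08 per 100 kb. The density was thus higher in all 3 Lrrtm windows than in the remainder of the host. With 2, 2 and 5 regions this is a description only.

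Of the 55 kainic acid regions, 53 overlapped the spans (96.4%) and 2 lay wholly in the flanks. The spans make up 95.8% of the windows' length, so this share was close to that of the length. At Lrrtm2 a region of kainic acid replicates 2 and 3 (35214823 to 35215786) ran over the higher end of the span (35215024). Its midpoint lay outside the span. No strand was listed for Lrrtm2, so whether this end is the 5′ end is not stated here. At no gene with listed start sites was a kainic acid region within 1 kb of one. The closest was at Nlgn1, where a region (26329771 to 26330370) lay 1539 bp inside the gene from the start at 26331909. At Lrrtm1 the nearest was 2378 bp from the listed start, and at Nlgn2 it was the upstream region at 7645 bp. At Lrrtm4, Nrxn3 and Lrrtm3 the nearest lay 8263, 10353 and 13784 bp away. The listed starts do not cover every 5′ end. At Nrxn3 the first is 88794504, in a span from 88722701, and at Lrrtm1 it is 77242477, in a span from 77229210. The gene table has no exons, so whether a region is intronic or exonic is not stated here.

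**Figure D3:**
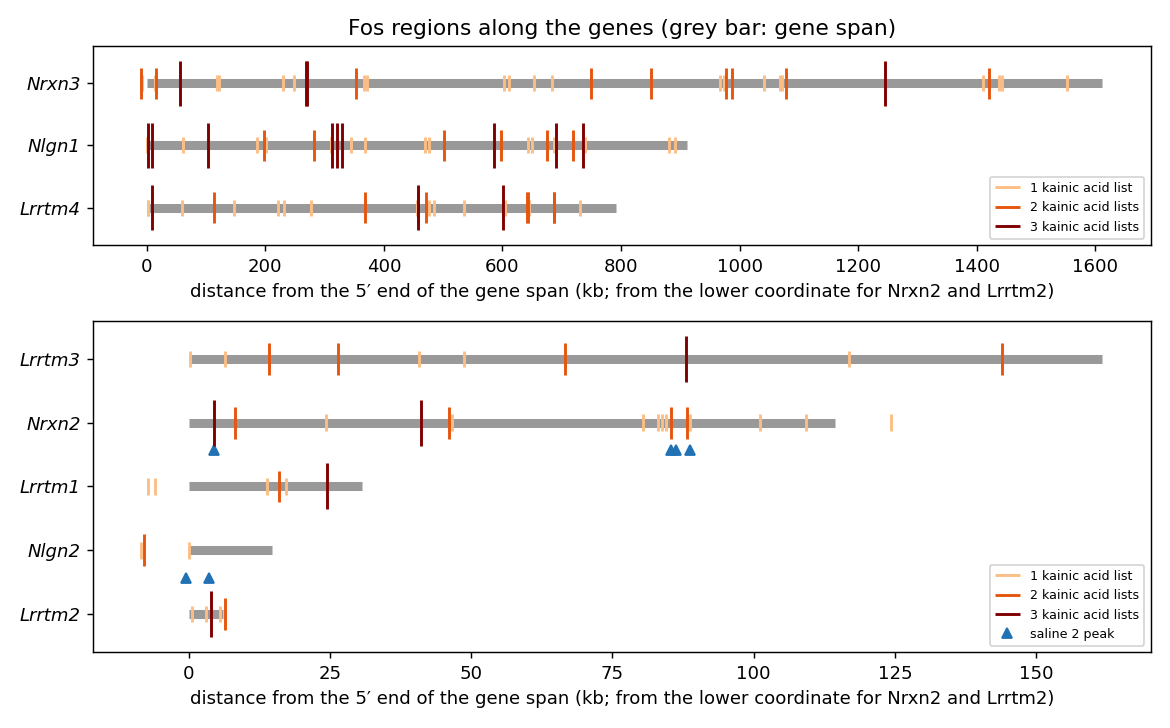
Fos regions along the 8 genes, with distance in kb from the gene's 5′ end (from the lower coordinate for Nrxn2 and Lrrtm2, whose strand was not listed). Grey bars are gene spans, line height and colour give the number of kainic acid lists (1, 2 or 3), and triangles mark saline replicate 2 peaks, which appear at Nrxn2 and Nlgn2 alone.

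Regions were unevenly spread along the long genes. In Nrxn3 the longest stretch between kainic acid regions was 396 kb (89075257 to 89471162), while a pair at 88990579 to 88991446 and 88993638 to 88994138 lay 2.19 kb apart, both in all 3 lists. With each span cut into 10 equal bins from the 5′ end, bin 4 of Nlgn1 held 4 regions, and 3 of these were in all 3 lists (26002474 to 26003794, 26012117 to 26012818 and 26020836 to 26021314). The longest stretch without one between regions was 171 kb, next to this group. In Lrrtm4 bin 9 held 4 regions and bin 6 held 3, and the longest stretch between regions was 254 kb. A pair in bin 9 (80704954 to 80705514 and 80705587 to 80706202) lay only 0.073 kb apart. Bin 6 also held a close pair (80476014 to 80476311 and 80476426 to 80477049). Only overlapping peaks were merged, so the counts in these bins may include split sites. Bin 4 of Nrxn3 held no kainic acid region, although 2 regions of a single kainic acid list lay there, so such a stretch is not one without any peak.

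The strength of a region was described by the percentile of its deposited fold within each list. The mean percentile was taken over the kainic acid lists that held the region. Means of regions held by different lists are therefore not on one scale. Nlgn1 held the region with the best mean percentile among the 8 genes. It lies 103 kb from the 5′ end (chromosome 3, 26229866 to 26230597) and had folds of 8.96, 15.8 and 9.71 in kainic acid replicates 1, 2 and 3. These stand at percentiles 2.94, 1.04 and 2.08. Nlgn1 had 2 more regions under percentile 10 on average, at 25747109 to 25748033 (mean 6.50) and 25642786 to 25643747 (mean 6.70), and a region near its 5′ end (26324077 to 26324993) at 10.4. All 4 were in all 3 lists.

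The leading region of Nrxn2 (chromosome 19, 6422873 to 6423660) had folds of 7.05, 10.97 and 7.62 in replicates 1, 2 and 3, at percentiles 8.47, 4.02 and 5.78. It also held a saline peak, and it lies within 10 kb of Rasgrp2 as well, so it cannot be assigned to Nrxn2 alone. The leading region of Nrxn3 (chromosome 12, 88777664 to 88778646) lay 55.5 kb from the 5′ end of the span. The first listed start site lay 15858 bp downstream of it. Its folds were 5.28, 10.3 and 5.96 and its mean percentile was 15.3. The leading region of Lrrtm4 (chromosome 6, 80619194 to 80620124) lay 601 kb from the 5′ end. It had folds of 5.63, 12.03 and 5.22 and a mean percentile of 15.3. Their percentiles were 4.98 and 2.82 in replicate 2 and 26.4 and 20.4 in replicate 1. Percentiles from lists of such different length are not comparable, since over all kainic acid regions the median was 24.3 in replicate 2 and 47.2 in replicate 1.

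The other Lrrtm genes had no region of high rank. Their best mean percentiles were 38.1 at Lrrtm1 (77253267 to 77253923), 45.4 at Lrrtm3 (64001847 to 64002508) and 46.5 at Lrrtm2 (35212505 to 35213262), each in all 3 lists. The region upstream of Nlgn2 stood at 92.5. A best rank favours genes with many regions, and Lrrtm1, Lrrtm2 and Lrrtm3 had 2, 2 and 5. Their medians of the mean percentile were 46.8, 58.5 and 56.3. The medians were 29.4 at Nrxn2, 47.8 at Nlgn1, 48.9 at Nrxn3 and 63.5 at Lrrtm4, an order unlike that of the best regions. Over all 55 regions the median of the mean percentile was 49.0, against 42.2 over the 26862 regions of the series, and 4 of the 55 (7.27%) were under percentile 10, against 7.72%. By list the members' medians were 44.6, 36.5 and 50.9 in replicates 1, 2 and 3, against 47.2, 24.3 and 44.8 in the series. The regions near the 8 genes thus ranked lower than those of the series in replicates 2 and 3 and slightly higher in replicate 1. In replicate 2, 17.0% of the members' regions were under percentile 10, against 23.1% in the series. These differences were not tested.

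**Figure D4:**
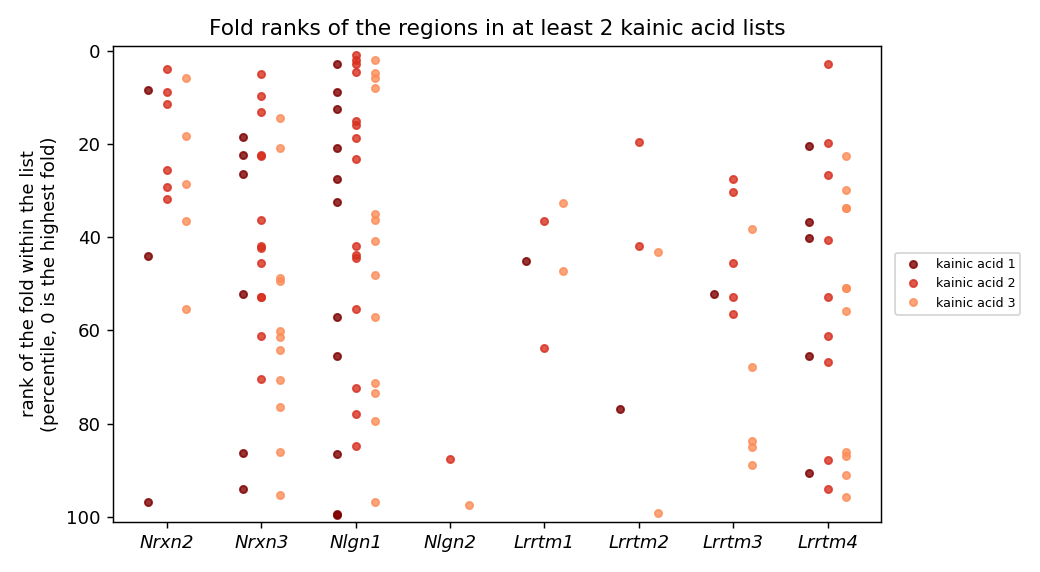
Percentile of the deposited fold within its list (vertical axis, 0 at the top is the highest fold) for each kainic acid region of each gene, 1 point per list that held it. Percentiles under 10 occur at Nlgn1, Nrxn2, Nrxn3 and Lrrtm4 and at none of the other genes plotted.

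Replicate support was like that of the series. Of the 55 regions, 21 were in all 3 lists, 38.2% (95% exact Clopper-Pearson interval 25.4 to 52.3), against 44.4% of all kainic acid regions. By gene the number in all 3 was 9 of 15 at Nlgn1, 4 of 13 at Nrxn3, 3 of 11 at Lrrtm4, 2 of 6 at Nrxn2 and 1 of 5 at Lrrtm3. At Nlgn2 it was 0 of 1. At 7 of the 8 genes at least 1 region was in all 3 lists, as at 23.9% of all protein-coding genes. By span class it was 12.7% under 20 kb, 28.4% from 20 to 100 kb, 62.0% from 100 to 500 kb and 86.3% over 500 kb. A further 75 regions near the genes were in 1 kainic acid list only. Replicate 2 gave 64 of them (85.3%), close to its 89.0% in the series.

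Saline peaks were few and came from replicate 2 alone, which had a peak near 2 of the 8 genes and near 17.0% of all protein-coding genes. By span class, in the same order, it was 13.9%, 20.1%, 22.5% and 17.7%. At Nrxn2 there were 4. The first (6423342 to 6423649, fold 4.43, percentile 36.5 of its list) lay in the leading region, which all 3 kainic acid lists held. The next (6503842 to 6504193, fold 5.29, percentile 8.85) lay in a region of kainic acid replicates 2 and 3. The other 2 (6504832 to 6505092 and 6507306 to 6507530) shared no base with a kainic acid region, though kainic acid replicate 2 had a peak at the last. Each lay just past the end of such a region (6503653 to 6504654 and 6506679 to 6507215). At Nlgn2 both saline peaks (69834000 to 69834303 and 69838112 to 69838329, folds 4.17 and 3.18) shared no base with a kainic acid peak. The second lay 328 bp upstream of the gene, near the kainic acid replicate 2 peak over its start. In all, 2 of the 55 regions had a saline peak (3.64%, interval 0.443 to 12.5), against 2.01% of all kainic acid regions. Folds of different libraries are not on one scale.

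Few regions lay near the 10 kb limit. Of the 55 regions, the 2 in the flanks lay 8558 bp upstream of Nrxn3 and 7645 bp upstream of Nlgn2. The nearest regions outside the limit lay 16074 bp from Nrxn2, 18750 bp from Lrrtm1 and 28014 bp from Lrrtm2. For Nlgn2 it was 43164 bp, for Lrrtm4 51889 bp, for Lrrtm3 123887 bp, for Nrxn3 125072 bp and for Nlgn1 276079 bp.

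Other genes of synaptic adhesion were read from a list of 47: secreted linkers such as cerebellins and C1q-like proteins, receptor phosphatases, latrophilins, Slitrk, Lrfn, Clstn and Cadm genes, and scaffolds. Of these, 32 had a kainic acid region, against 40.0% of all genes, and 24 had more peaks in every kainic acid library than in every saline library, against 20.7%. Many of the 47 are long. Over all genes the share with a region rose from 26.3% under 20 kb to 94.7% over 500 kb. The share with such a separation rose from 9.98% to 88.5%. The 47 genes were not set against genes of like span, so these numbers are a description only. The densest were Lrrc4 (16.9 regions per 100 kb), a postsynaptic netrin-G ligand, C1ql3 (13.8), a secreted C1q-like protein, and Slitrk3 (6.48), a partner of receptor phosphatases at inhibitory synapses. Cadm3 (5.33) and C1ql2 (4.43) followed, with 3 regions and 1 region, no peak in kainic acid replicate 1 and no region in all 3 lists. Slitrk3 had 2 regions, so the order of these genes rests on few regions. Lrrc4 and C1ql3 each had 4 regions, with 1, 6 and 4 peaks and 3, 8 and 6 peaks in kainic acid replicates 1, 2 and 3. Of these regions, 1 at Lrrc4 and 3 at C1ql3 were in all 3 lists. Other genes around the regions of the 47 were not examined, so these regions are not assigned to them alone. Saline replicate 2 had peaks near 10 of the 47, against 17.0% of all protein-coding genes. There were 4 each at Ptprs and Adgrl1, 2 at Lrrc4b and 1 each at Clstn2, Cadm1, Slitrk5, Tenm4, Ntng2, Lrfn1 and Lrfn4.

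The genes with peak numbers most like those of Nlgn1 were found by the Euclidean distance between square roots of the numbers in the 6 lists. Dock10 came first at 0.152 (12, 24 and 20 peaks in kainic acid replicates 1, 2 and 3), then Ppm1e at 0.278 (11, 25 and 17) and Htr4 at 0.347 (11, 28 and 18). None had a saline peak. All 3 are shorter than Nlgn1, with spans of 257698, 132089 and 179482 bp, so that their densities of 6.84, 10.5 and 7.02 regions per 100 kb exceeded its 1.61.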

How the data were processed

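ChIP-seq peak lists of 3 kainic acid and 3 saline libraries were used, 1 list per library. Per the submitters' processing notes, the tools were Trim Galore 0.6.4, Bowtie2 2.3.4.3, MACS2 and deepTools 3.5.0, with the build mm10. Peak names record a mapping quality of 30 and a merged alignment, and what was merged is not given in the sources used here. The caller's settings and control library are not given in the sources used here. In each deposited list the fold is a linear ratio of peak to local background, and −log10 p and −log10 q belong to 1 library. The deposited score is 10 times −log10 q, rounded down. None is scaled between libraries, so folds were only ranked within a list. The smallest −log10 q was 1.38, 1.35 and 1.35 in kainic acid replicates 1, 2 and 3 and 1.35 in saline replicate 2.

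Gene spans and promoters came from RefSeq tables of GRCm38.p6, the assembly that mm10 names. All 8 genes and all 47 other adhesion genes matched by symbol. Regions were merged at 1 bp of overlap and assigned to genes within 10 kb. Peak numbers were compared by a two-sided exact permutation test over 20 assignments, run on all 21883 protein-coding genes. Merging, counting and the test were checked on simulated lists. Shares have 95% exact Clopper-Pearson intervals. Python 3.11.15, pandas 2.3.3, numpy 2.4.6 and scipy 1.17.1 were used. The genes and lists were chosen with earlier results of these data known. Named were all 8 genes, each one's region of best mean percentile, every saline peak, the 5 densest other adhesion genes and those with a saline peak, and the 3 genes most like the one with most regions. Regions named for their position or spacing and the alpha-catenin genes were added after their values had been seen. Alternatives covered the q threshold, replicate support, overlap, list length, reach, each library left out, the replicate block and the measure of rank. The input library was not analysed here.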

Additional observations from a re-analysis of the deposited data

How the results depend on the processing

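The number of kainic acid regions near the 8 genes (55) was 29 at a −log10 q minimum of 5, 9 at a minimum of 10, 21 where all 3 lists had to share a region, 130 for any list and 21 with kainic acid lists of equal length. It was 47 with summits within 200 bp, 51 with 50% overlap, 53 overlapping the spans and 63 within 50 kb. Leaving out a kainic acid library gave 23 to 48, where fewer lists allow fewer pairs. Leaving out a saline library left 55, since kainic acid regions are defined by the kainic acid lists. The number of genes with a region was 4 at the minimum of 10 and 7 or 8 under all other settings run. The share in all 3 lists was 55.6% at the minimum of 10 and 52.4% with equal lengths, from 9 and 21 regions. It has no value with a kainic acid library left out. Of 120 alternative counts by gene, 60 moved by over 1.5 times, 49 to fewer and 11 to more, and 10 were 0. The 120 include the settings without a saline library, in which no count changed. Of 96 alternative differences in peak number, 91 kept their direction and 3 were 0. Within 10 kb a reversal was possible only at Nrxn2 and Nlgn2, the genes with saline peaks. Most of the 96 values could thus not reverse, and the number that kept direction says little about stability. The 2 that reversed were both at Nlgn2, -0.667 with equal lengths and -0.167 without kainic acid replicate 2, in a range of -0.167 to 1.33 over the libraries left out. The tests could not pass 0.05 in any setting, so their p-values say nothing about stability. With the replicate block the differences were the same by construction, for example 18.7 at Nlgn1 and 17.0 at Nrxn3. At both the exact sign-flip p was 0.25, the smallest 3 pairs allow. Deviations of same-numbered libraries (square roots of peak numbers) correlated at -0.0736, 0.145 and 0.290 over the 8 genes, and the labels name no pairing, so the numbers were not treated as pairs. Ranked by −log10 q, the best region was the same at 7 of 8 genes. The exception was Lrrtm3, where 64023376 to 64023904 came first (mean percentile 45.7 by −log10 q). Only kainic acid replicates 2 and 3 held that region. Unknown depth limits all of this: regions in 1 list cannot be told from regions missed in the shorter lists.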
